A study of Rattus norvegicus with 3 samples.

Results

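The genes described here are 10 members of the antigen presentation machinery of the rat, out of 14506 genes that had a probe set with a single gene symbol. They were chosen by symbol, 5 for the major histocompatibility complex (MHC) class II pathway (RT1-Da, RT1-Ba, RT1-Bb, RT1-Db1 and Cd74) and 5 for the supply of peptides to class I molecules (B2m, Tap1, Tap2, Psmb8 and Psmb9). Each had 1 probe set, and all 10 passed the filter on dim genes. RNA came from tibialis anterior muscle of male Wistar rats aged 11 weeks. High-fat food, with 45% of the energy from fat, was given over the last 3 weeks. The muscle had been electroporated in the living animal with 150 µg of plasmid 8 days before it was taken. The Plin5 group received pcDNA3.1-CMV-Plin5 (OXPAT), the Plin2 group pENTR-CMV-Plin2 (ADRP) and the control group the empty pcDNA3.1 vector, so the Plin2 plasmid differed from both others in its backbone as well as its insert. Plin5 and Plin2 are perilipins, proteins that coat lipid droplets, and the viral CMV promoter drives them in whichever cells take up the DNA. Each group was 1 array of RNA pooled from 6 rats. There was therefore no spread between samples of a group, no difference was tested, and precision is limited by there being 3 arrays.

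MHC class II molecules are pairs of an alpha and a beta chain that carry peptides from endosomes to the surface, mainly on macrophages, dendritic cells and B cells, and show them to CD4 T cells. The rat has the pairs RT1-D (chains Da and Db1) and RT1-B (chains Ba and Bb), and the invariant chain Cd74 guards their groove until they reach the endosome. Class I molecules are made by nearly all cells with a nucleus and need the light chain B2m, the peptide transporter Tap1 and Tap2, and peptides cut by the proteasome. Interferon gamma makes cells swap proteasome subunits for Psmb8, Psmb9 and Psmb10, the immunoproteasome. It also raises class II genes through the coactivator Ciita, which assembles on the X and Y boxes of their promoters. Many class I pathway genes carry an interferon-stimulated response element (ISRE) bound by interferon regulatory factors such as Irf1. Resting muscle fibres carry little class I and class II protein.

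The promoter stretches of the members that hold letters of these elements are printed here, so that both classes can be compared. All 10 members had a window from 250 bases before to 50 bases after a transcript start in RefSeq (build GRCr8). In the class II stretches the capitals mark the letters GCAAC, the core of the X box, and CTGATTGG, the Y box:
RT1-Da: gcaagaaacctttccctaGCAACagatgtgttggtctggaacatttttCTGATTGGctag
RT1-Ba: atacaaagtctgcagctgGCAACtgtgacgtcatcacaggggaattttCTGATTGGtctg
RT1-Db1: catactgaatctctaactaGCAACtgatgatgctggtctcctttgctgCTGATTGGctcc
RT1-Bb: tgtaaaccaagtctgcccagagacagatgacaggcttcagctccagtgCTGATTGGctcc
Cd74: attaGCAACgtgggcggagtgacctgctgt
The sequences run 5′ to 3′ on the strand of the gene and lie before its transcript start. RT1-Da is at chr20:4515315-4515374 (plus strand), RT1-Ba at chr20:4576963-4577022 (plus), RT1-Db1 at chr20:4560234-4560293 (minus), RT1-Bb at chr20:4604171-4604230 (minus) and Cd74 at chr18:56527132-56527161 (plus). The X box core stood 25 bases before the Y box in RT1-Da and RT1-Ba and 24 bases before it in RT1-Db1. RT1-Bb had the Y box and no GCAAC in its window, and Cd74 had GCAAC and no CTGATTGG. Only these exact letters were searched, so a box with other letters would have been missed.

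In the class I peptide supply stretches the capitals mark an ISRE core, which is GAAA, any 2 bases and GAAA again, or its reverse complement:
B2m: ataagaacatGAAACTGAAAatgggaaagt
Tap1: cggtggctgcTTTCGGTTTCttcttcctct
Tap2: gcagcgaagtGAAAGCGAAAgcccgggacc
Psmb8: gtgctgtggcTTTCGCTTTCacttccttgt
B2m is at chr3:129549170-129549199 (plus strand), Tap1 at chr20:4668645-4668674 (minus), Tap2 at chr20:4652318-4652347 (minus) and Psmb8 at chr20:4657016-4657045 (minus), where the match spans the transcript start. The Psmb9 window had no ISRE core. Tap1 and Psmb9 are neighbours that are read away from each other, and their transcript starts lie 457 bases apart.

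The 3 motifs were searched on both strands, with overlapping matches counted, and were chosen with the sequences in view. The Y box was in 4 of 5 class II windows, 1 of 5 class I peptide supply windows (Psmb9, after its start) and 3.50% of 33469 windows of all genes. The ISRE core was in 0 of 5 class II windows, 4 of 5 class I peptide supply windows and 3.92% of all windows. The short X box core was in 4 of 5, 2 of 5 and 35.1%. An X box core followed on the strand of the gene by a Y box 10 to 40 bases on was in 3 of 5 class II windows, 0 of 5 class I peptide supply windows and 0.0807% of all windows, which is 27 windows. In the wider lists, among genes past the dim filter, the Y box was in 2 of 14 other class II pathway windows and 5 of 16 other class I pathway windows. The ISRE core was in 2 of 14 (Rfx5 and Ctss) and 5 of 16 of these windows. The split of the Y box by class seen in the members was thus not seen in the wider lists. A match is a run of letters, and binding was not measured.

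**Figure D1:**
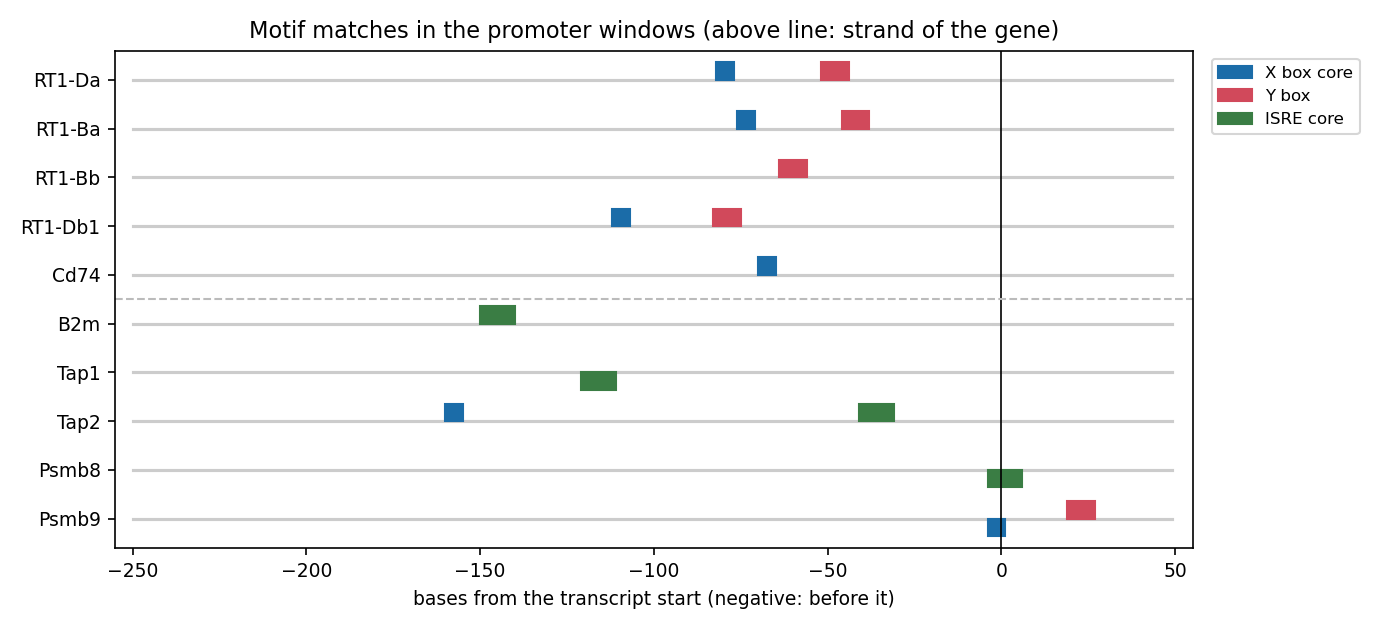
Motif matches in the promoter windows of the 10 members, by distance in bases from the transcript start; blocks above a line are on the strand of the gene and blocks below it on the opposite strand. Exact matches of the X box core (GCAAC) and the Y box lie together in RT1-Da, RT1-Ba and RT1-Db1, and ISRE cores lie in B2m, Tap1, Tap2 and Psmb8.

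The arrays themselves were alike in overall level, with medians of 6.37 (Plin5), 6.40 (Plin2) and 6.38 (empty vector) log2 units over all probe sets. The Plin5 probe set read 8.30 on the Plin5 array, 6.79 on the Plin2 array and 7.52 on the empty vector array, and the Plin2 probe set read 10.08, 10.71 and 9.99 on the same arrays. Muscle fibre markers such as Acta1 and Ckm were bright on all 3 arrays. Differences were counted when they reached 1.5-fold, or 0.585 on the log2 scale, and shares of all genes refer to the 10879 genes that passed the filter on dim genes.

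The class II genes were highest on the Plin2 array, and 4 of 5 were lowest on the Plin5 array. RT1-Da, the alpha chain of RT1-D, had a level of 10.11 on the Plin5 array, 11.57 on the Plin2 array and 10.70 on the empty vector array. RT1-Db1, the beta chain of the same molecule, had 8.14 (Plin5), 8.71 (Plin2) and 8.31 (empty vector). Both chains of RT1-D thus had the order Plin2, empty vector, Plin5, with wider gaps for the alpha chain. RT1-Ba, the alpha chain of RT1-B, had 10.10 (Plin5), 10.87 (Plin2) and 10.38 (empty vector). RT1-Bb, its beta chain, had 10.59 (Plin5), 10.91 (Plin2) and 10.37 (empty vector). The chains of RT1-B took different orders, since RT1-Bb alone among the class II genes was above the empty vector on the Plin5 array. Whether the RT1 probe sets match the alleles in each pool of these Wistar rats was not tested. Cd74 had 12.59 (Plin5), 13.22 (Plin2) and 12.80 (empty vector), the order of RT1-Da, RT1-Db1 and RT1-Ba.

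The class I peptide supply genes were also highest on the Plin2 array, but the Plin5 array took no common place among them. B2m had 13.28 (Plin5), 13.53 (Plin2) and 13.32 (empty vector). Tap1, a subunit of the peptide transporter, had 8.78 (Plin5), 9.65 (Plin2) and 8.51 (empty vector). Tap2, the other subunit, had 7.55 on the Plin5 array, 7.68 on the Plin2 array and exactly its Plin5 value on the empty vector array. The transporter subunits thus differed in how far the arrays lay apart. Psmb8, an immunoproteasome subunit, had 8.54 (Plin5), 9.63 (Plin2) and 8.76 (empty vector). Psmb9, another, had 10.05 (Plin5), 10.66 (Plin2) and 9.60 (empty vector). Tap1 and Psmb9 shared the order Plin2, Plin5, empty vector, while B2m and Psmb8 had the order of most class II genes. With 1 array per group none of these orders could be set against a spread.

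**Figure D2:**
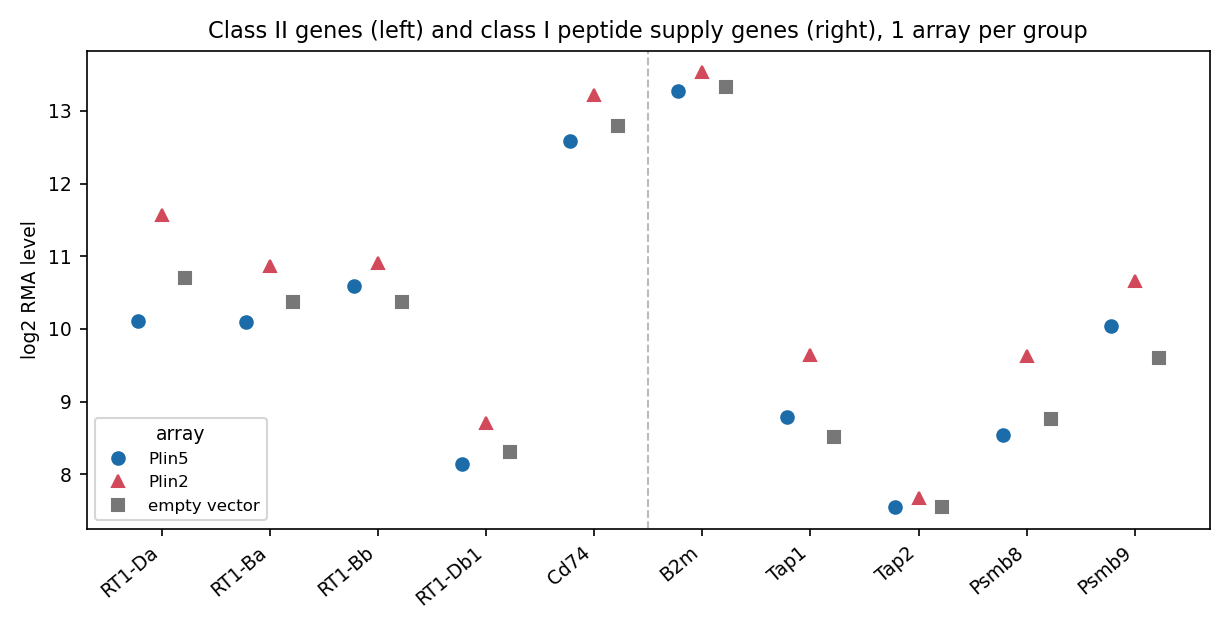
Log2 RMA levels of the 10 members on the Plin5 (circle), Plin2 (triangle) and empty vector (square) arrays, 1 point per array, with class II genes left of the dashed line. The Plin2 point is the highest for every gene, and the Plin5 point lies above the empty vector point for RT1-Bb, Tap1 and Psmb9.

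Set against the empty vector, the Plin5 array had lower values for 4 of 5 class II genes, beside 34.0% of all genes. RT1-Da was furthest down on the Plin5 array at −0.59, just past 1.5-fold. Only 1.41% of all genes were lower than RT1-Da there. RT1-Ba followed at −0.28, Cd74 at −0.21 and RT1-Db1 at −0.17, whereas RT1-Bb was at 0.22. Their median log2 difference was −0.21, and the median over all genes was 0.00. Of the 5, 1 was lower by at least 1.5-fold (RT1-Da), beside 1.42% of all genes. That count was 0 once each array was centred on its median (RT1-Da at −0.55) or quantile-normalized (−0.57), because RT1-Da lies at the threshold. At 1.2-fold, 2 of 5 were lower, beside 5.71% of all genes.

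The class I peptide supply genes lay on both sides of the empty vector on the Plin5 array. Psmb9 was at 0.44 (1.36-fold) and Tap1 at 0.28 (1.21-fold), above 99.6% and 98.7% of all genes. Psmb8 was at −0.22 and B2m at −0.04. The median of the 5 was 0.00, set by Tap2, and it was 0.14 without B2m. None reached 1.5-fold upward, beside 0.221% of all genes, and at 1.2-fold 2 of 5 were higher (Tap1 and Psmb9), beside 1.52%. Of all genes, 34.0% were below 0, 25.8% above it and 40.2% exactly equal on these arrays, so exact equality as in Tap2 was common.

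Set against the empty vector, the Plin2 array had higher values for all 10 members, beside 38.3% of all genes. RT1-Da was at 0.87 (1.82-fold), RT1-Bb at 0.55, RT1-Ba at 0.49, Cd74 at 0.42 and RT1-Db1 at 0.40, a median of 0.49. Tap1 was at 1.14 (2.20-fold), Psmb9 at 1.05 (2.08-fold), Psmb8 at 0.86 (1.82-fold), B2m at 0.21 and Tap2 at 0.13, a median of 0.86. The B2m difference was 0.36 after quantile normalization, and that of Tap2 was 0.03. At 1.5-fold 1 of 5 class II genes and 3 of 5 class I peptide supply genes were higher, beside 8.84% of all genes. At 1.2-fold the counts were 5 of 5 and 3 of 5, beside 19.4%. None of the 10 was lower by 1.5-fold or by 1.2-fold, as 5.80% and 15.5% of all genes were.

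The Plin5 array, set directly against the Plin2 array, was lower for all 10 members, beside 40.2% of all genes. Tap2, however, was at 0.01 in place of −0.13 after quantile normalization. RT1-Da had the widest gap at −1.45 (2.74-fold lower), followed by Psmb8 at −1.08 (2.12-fold lower), Tap1 at −0.86 and RT1-Ba at −0.77. Cd74 was at −0.63, Psmb9 at −0.61, RT1-Db1 at −0.56, RT1-Bb at −0.32 and B2m at −0.25 (−0.41 after quantile normalization). In each class 3 of 5 genes were lower by at least 1.5-fold, beside 11.3% of all genes, and at 1.2-fold the counts were 5 of 5 for class II and 3 of 5 for class I peptide supply, beside 22.0%. None was higher, as 7.19% of all genes were at 1.5-fold and 16.6% at 1.2-fold. The comparisons share arrays, so these values are not independent of those against the empty vector.

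Side by side, the class II genes had the smaller median difference on the Plin2 array (0.49, from 0.40 to 0.87) and the class I peptide supply genes the larger (0.86, from 0.13 to 1.14). The medians differed by −0.37, class II minus class I, but the means by only −0.13, with B2m and Tap2 holding the smallest differences of the 10. On the Plin5 array the medians were −0.21 (from −0.59 to 0.22) and 0.00 (from −0.22 to 0.44), a difference of −0.21. Between the Plin5 and Plin2 arrays they were −0.63 and −0.61 and differed by −0.02, a sign that turned to 0.11 without B2m. In each comparison the ranges of both classes overlapped. The members share arrays and are not replicates, so the gap between the classes was not tested.

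Class II molecules are loaded in the endosome, and the other genes of that pathway had a median of −0.19 on the Plin5 array and 0.73 on the Plin2 array against the empty vector. Of 18 such genes, 13 were below the empty vector on the Plin5 array and 16 were above it on the Plin2 array, beside 34.0% and 38.3% of all genes. On the Plin2 array 12 were higher by at least 1.5-fold, beside 8.84% of all genes. The chaperone chains RT1-DMa and RT1-DMb, which exchange the invariant chain fragment for peptide, were at −0.26 and −0.18 (Plin5) and at 0.97 and 0.80 (Plin2). RT1-DOa and RT1-DOb, which restrain that exchange, were at 0.00 and −0.21 (Plin5) and at 0.04 and 0.07 (Plin2). The inhibitor chains thus differed less than the exchange factor on the Plin2 array, but they were also dimmer. On the empty vector array RT1-DOa and RT1-DOb had levels of 6.80 and 6.57, near the array median of 6.38. RT1-DMa and RT1-DMb had 10.65 and 10.08 there. Whether the low level of the inhibitor chains hides a difference was not tested.

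Of the proteases that cut the invariant chain and antigens, Ctss and Ctsl were among the lowest pathway genes on the Plin5 array. Ctss, cathepsin S, had a level of 9.62 (Plin5), 11.28 (Plin2) and 10.21 (empty vector), which gave −0.59 and 1.07 against the empty vector. It was the lowest of the pathway genes on the Plin5 array, followed by the costimulatory gene Cd86 (−0.37) and the cathepsin Ctsl (−0.31). On the Plin2 array the highest were Marchf1 (1.40), a ubiquitin ligase that takes class II off the surface, Cd86 (1.28) and Ifi30 (1.18), a reductase that opens disulfide bonds of antigens. The Ciita probe set had 7.35 (Plin5), 8.21 (Plin2) and 7.39 (empty vector), or −0.04 and 0.82. The factors of the X box complex, Rfx5 (0.12 and 0.20), Rfxank (−0.07 and −0.23) and Rfxap (0.00 and 0.00), stayed within 0.23 log2 units of the empty vector on both arrays. The coactivator thus differed on the Plin2 array by more than the factors it joins.

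In the class I pathway beyond the members, 18 of 23 listed genes were measured, with medians of 0.00 (Plin5) and 0.37 (Plin2). The chaperones of class I folding were above the empty vector on the Plin2 array, with the peptide-loading factor Tapbp at 0.86, Calr at 0.45, Canx at 0.38 and Pdia3 at 0.35, and lay between −0.15 and 0.07 on the Plin5 array. Among the class I heavy chains, RT1-N3 (−0.30 and 1.11) and RT1-S3 (−0.53 and 1.02) were the highest on the Plin2 array. RT1-CE16 was the lowest on the Plin5 array (−0.89). Cd1d1, which presents lipids, went the other way, at 0.26 on the Plin5 array and −1.22 on the Plin2 array. Many RT1 genes belong to families of closely related, polymorphic copies, so the RT1 values are uncertain. Whether the probes match the alleles of these outbred rats was not tested. The classical heavy chains RT1-A1 and RT1-A2 were not analysed here, because their probe set carries several gene symbols. Nlrc5, RT1-CE1 and RT1-T24-3 were also listed and had no probe set with a single gene symbol.

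The immunoproteasome subunits can be set beside the constitutive subunits that they replace. On the Plin2 array Psmb8 was at 0.86 and its counterpart Psmb5 at −0.08, Psmb9 at 1.05 and Psmb6 at −0.28, and Psmb10 at 0.64 and Psmb7 at −0.11. All 3 immune subunits were thus above the empty vector there and all 3 constitutive ones below it, by less. On the Plin5 array the constitutive subunits lay between −0.02 and 0.00, and the immune ones were at −0.22 (Psmb8), 0.44 (Psmb9) and 0.00 (Psmb10). The regulator subunits Psme1 and Psme2 were at −0.02 and 0.03 (Plin5) and at 0.22 and 0.29 (Plin2).

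Genes of interferon gamma signalling were higher on both arrays for some members and only on the Plin2 array for others. Ifng itself had a level of 6.15 (Plin5), 6.54 (Plin2) and 5.24 (empty vector), the last under the dim level of 5.34. Irf1 had 9.55 (Plin5), 10.13 (Plin2) and 8.80 (empty vector). Both had the order Plin2, Plin5, empty vector that Tap1 and Psmb9 showed, and so did the feedback inhibitor Socs1 (0.42 and 1.54), the GTPase Gbp2 (0.38 and 1.32) and the chemokine Cxcl9 (0.84 and 0.91). Irf8, a factor of myeloid cells, had the order of the class II genes (−0.51 and 1.10), as had the receptor chain Ifngr1 (−0.15 and 0.44). Jak2 was at 0.01 and 0.77, Jak1 at 0.00 and 0.15, and Ifngr2 at −0.01 and 0.34. In this list 3 of 10 measured genes were higher by at least 1.5-fold on the Plin5 array, beside 0.221% of all genes, and 7 of 10 on the Plin2 array, beside 8.84%. Ifng is among the 3 and passed the dim filter through its values on the Plin5 and Plin2 arrays.

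**Figure D3:**
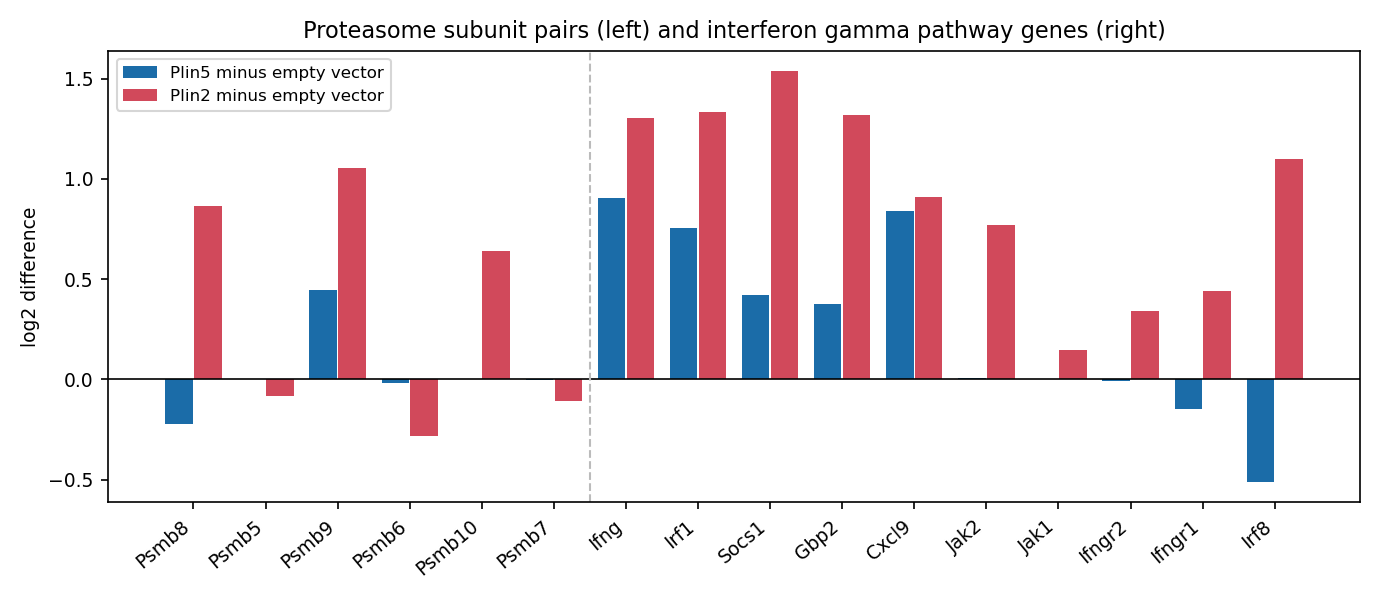
Log2 difference from the empty vector array of immunoproteasome subunits, each followed by its constitutive counterpart (left of the dashed line), and of 10 interferon gamma pathway genes, on the Plin5 array (blue) and the Plin2 array (red). Psmb9, Ifng, Irf1, Socs1, Gbp2 and Cxcl9 are clearly above 0 on both arrays, while Psmb8, Irf8 and Ifngr1 lie below 0 on the Plin5 array and above it on the Plin2 array.

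Of the cell types that carry class II, macrophages had the markers with the widest median differences. The macrophage list had a median of −0.47 on the Plin5 array, with 11 of 13 genes below the empty vector, beside 34.0% of all genes. On the Plin2 array its median was 1.12, with 13 of 13 above the empty vector, beside 38.3% of all genes. Its extremes were Adgre1 (−0.69) and Cd14 (0.21) on the Plin5 array and Cd163 (0.43) and Mpeg1 (1.42) on the Plin2 array. The summed linear level of the list was 12.81 (Plin5), 14.36 (Plin2) and 13.27 (empty vector) in log2 units. For the 5 class II genes that sum was 13.31 (Plin5), 14.03 (Plin2) and 13.52 (empty vector), the same order with narrower gaps. Cd74, the brightest of the 5, weighs most in that sum and was at −0.21 (Plin5) and 0.42 (Plin2). RT1-Da, with the widest differences of the 5, was at −0.59 (Plin5) and 0.87 (Plin2). In RNA of whole muscle, more cells of a type and more RNA per cell cannot be told apart. The part of macrophage content in the class II values was not tested.

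Dendritic cell markers had medians of −0.14 (Plin5) and 0.33 (Plin2) over the 6 of 11 that passed the dim filter, of which 3 were equal on the Plin5 and empty vector arrays. Xcr1, a receptor of cross-presenting dendritic cells, was the lowest on the Plin5 array (−1.33), and Clec10a the highest on the Plin2 array (0.55). Clec9a, Itgae and Cd209a were dim. The summed level of that list was 9.85 (Plin5), 10.52 (Plin2) and 10.18 (empty vector). B cell markers rested on 4 of 9 genes, 2 of them equal on all 3 arrays, with medians of −0.09 (Plin5) and 0.19 (Plin2), a summed level of 8.00 (Plin5), 8.98 (Plin2) and 8.66 (empty vector), and dim values for the defining genes Ms4a1 and Fcer2. Jchain, of antibody-secreting cells, was its lowest on the Plin5 array (−1.85) and its highest on the Plin2 array (0.50).

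T cell markers, whose cells see the peptides, had medians of −0.29 (Plin5) and 0.88 (Plin2). Against the empty vector 10 of 11 were below (Plin5) and 11 of 11 above (Plin2), beside 34.0% and 38.3% of all genes. The T cell markers had a summed level of 11.87 (Plin5), 12.96 (Plin2) and 12.18 (empty vector). Cd4, the brightest of them at 10.75 (Plin5), 11.67 (Plin2) and 11.16 (empty vector), weighs most in that sum. Whether its RNA came from T cells was not tested. Their extremes were Cd8b (−0.54) and Cd2 (0.26) on the Plin5 array and Zap70 (0.27) and Cd8a (1.54) on the Plin2 array. Natural killer cell markers, whose cells are a source of interferon gamma, had medians of 0.09 (Plin5) and 1.31 (Plin2) over the 6 of 8 that passed the dim filter. Whether the RNA of these markers came from natural killer cells or from cytotoxic T cells was not tested. Klrd1 was lowest (−0.48) and Gzmb highest (0.79) on the Plin5 array, and Ncr1 lowest (0.12) and Gzmb highest (2.14) on the Plin2 array. Klrb1 was dim, and Ncr1 lay near the dim level of 5.34, at 5.63 (Plin5), 5.76 (Plin2) and 5.63 (empty vector). On the Plin5 array natural killer markers lay on both sides of the empty vector, with 3 of 6 above it and 2 below it, beside 25.8% and 34.0% of all genes. The summed level of the natural killer list was 11.47 (Plin5), 12.76 (Plin2) and 11.36 (empty vector). Endothelial markers, of cells that can also carry MHC, stayed between −0.36 (Flt1, Plin2) and 0.25 (Flt1, Plin5), with Tek at −0.09 (Plin5) and 0.23 (Plin2). Fibroblast markers were at −0.13 and 0.20, from Col1a1 (−0.22) to Col3a1 (0.00) on the Plin5 array and from Dcn (0.06) to Thy1 (1.08) on the Plin2 array. Muscle fibre markers were at 0.02 and −0.15, from Acta1 (0.00) to Myh2 (0.24) on the Plin5 array and from Myh2 (−0.98) to Acta1 (−0.02) on the Plin2 array.

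**Figure D4:**
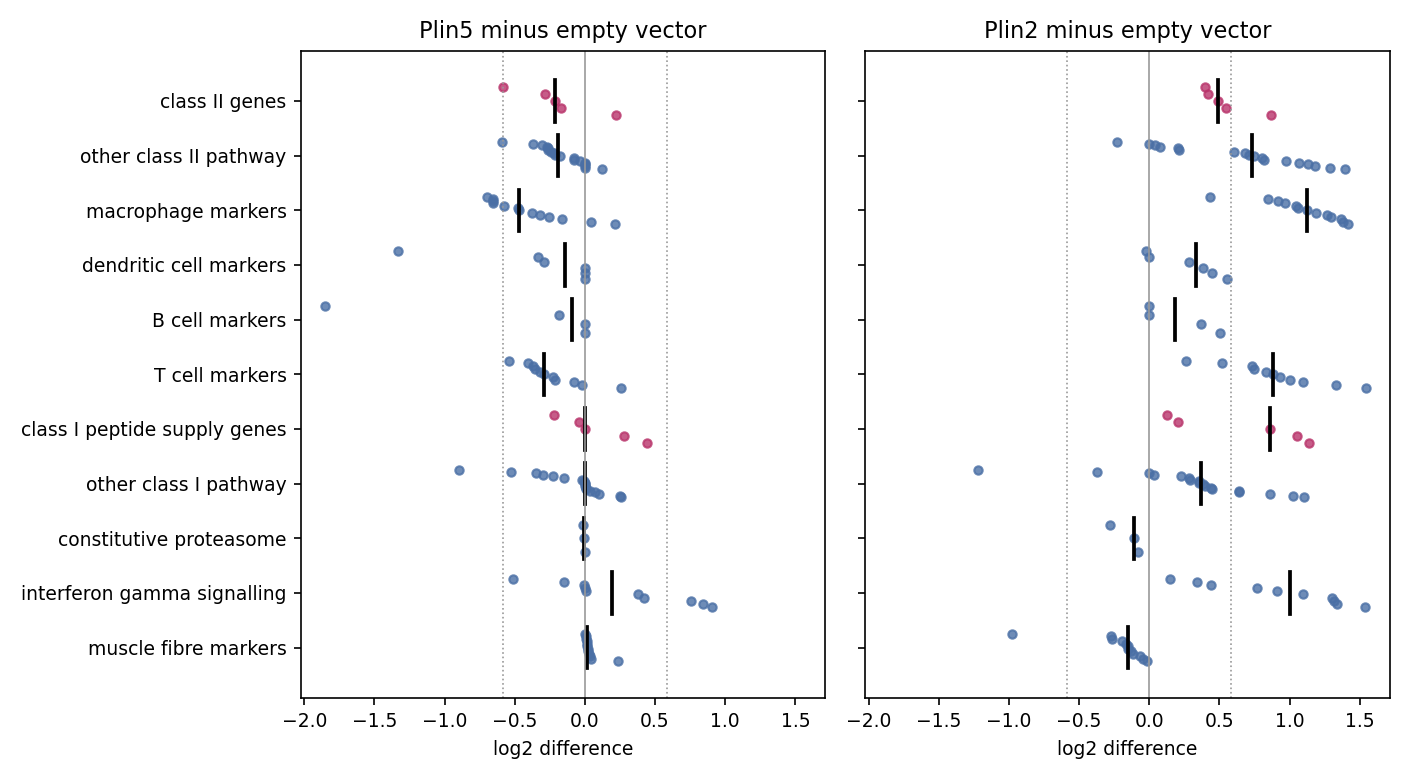
Log2 difference from the empty vector array for each gene (point) of the listed groups, with the median of the group (black bar), on the Plin5 array (left) and the Plin2 array (right); dotted lines mark 1.5-fold. On the Plin5 array the medians of the class II genes (−0.21) and of the macrophage (−0.47) and T cell markers (−0.29) lie below 0, while the class I peptide supply genes have a median of 0.00, and on the Plin2 array all genes of both classes lie above 0.

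Likeness was measured as the distance between a gene's differences from the empty vector on the Plin5 and Plin2 arrays and the median pair of each class, over 3 arrays. The genes nearest to the class II pair (−0.21 and 0.49) were Fam20c, Mmp2, Aga, Macf1, Rnf145, Nr4a2, Enpp5 and Scamp2, at distances from 0.0062 to 0.023 log2 units. Nearest to the class I peptide supply pair (0.00 and 0.86) were Gnai1, Napsa, Chst11, B4galnt1, Cdh15, Vamp8, Adamts15 and Rrm2, at 0.011 to 0.030. None of these 16 genes belongs to the lists of antigen presentation used here.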

How the data were processed

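The authors deposited log2 values made by RMA (robust multi-array average), a tool named without a version in the submitters' processing notes. The log base is not in the table and was taken as log2, which RMA returns. The array library version is not given in any source used. Per the labels' protocols, 100 ng of RNA entered labelling and its integrity number had to exceed 8. The table holds 29214 probe sets. Only the 15310 that the platform annotation pairs with 1 gene symbol entered the results; 323 carry several symbols and 13581 are unnamed here. Of the named probe sets, 15279 matched a gene in RefSeq (GRCr8, used for names, neighbours and promoters). The probe set with the highest mean stood for each of 14506 genes, and genes whose mean lay under the 25th percentile (5.34) were left out, which left 10879. Of all probe sets, 11311 had equal values on all 3 arrays.

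Results subtract 1 array's log2 value from another's, with no test. Differences are read as fold changes of linear intensity. Named genes were the members, the up to 3 highest and lowest genes of each wider pathway list, all interferon and constitutive proteasome genes, the extremes of each marker list, and the 8 genes nearest to each class. The RT1-DM, RT1-DO, Ciita, Rfx, folding chaperone, Psme, Psmb10 and Tek values were named after being seen. Members and lists were chosen with earlier results of these data known. The arithmetic of the differences and counts was checked on simulated data, which tests no difference between the groups. Computation used numpy 2.4.6, pandas 2.3.3 and statsmodels 0.14.6 under Python 3.11.15, and figures matplotlib 3.10.9.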

Additional observations from a re-analysis of the deposited data

How the results depend on the processing

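Across 12 alternatives, list values with no replicate spread were taken as alike within 0.10 log2 units and counts within 1.5 times. Of the medians and gaps of both classes, 72 values were alike and 12 moved. Part of the 72 could not have moved. Each member had 1 probe set and passed every dim filter, so averaging probe sets or changing that filter returned the main values. Centring cannot change a gap between classes, and leaving out equal genes cannot change a list that has none. For the class II median, Plin5 minus Plin2 was −0.78 after a loess correction for level and −0.75 as a mean. For the class I peptide supply median, Plin5 minus empty vector was 0.12 without genes of equal value and 0.14 without B2m, Plin2 minus empty vector was 0.68 as a mean, and Plin5 minus Plin2 was −0.74 without B2m. The gap of class II minus class I was −0.33 without equal genes and −0.35 without B2m for Plin5 minus empty vector, −0.13 by means for Plin2 minus empty vector, and −0.12 after loess, −0.16 by means and 0.11 without B2m for Plin5 minus Plin2, where the last turned the sign of −0.02. Counts at 1.2-fold were 2 class II genes lower and 2 class I genes higher (Plin5 minus empty vector), 5 class II genes higher (Plin2 minus empty vector) and 5 lower (Plin5 minus Plin2). At 2-fold the class II counts were 0 lower, 0 higher and 1 lower in those comparisons, and 1 class I gene was lower between Plin5 and Plin2. The count of class II genes lower on the Plin5 array than on the empty vector array was 0 after centring or quantile normalization, and 2 class II genes were higher on the Plin2 array after loess. Other signs that turned were those of Tap2 for Plin5 minus Plin2 (0.0087 after quantile normalization) and the muscle fibre median in that comparison (−0.0128 after loess, in place of 0.17), and of the constitutive proteasome median for Plin5 minus empty vector (0.03 after centring, in place of −0.01). The causes were not tested. Centring removed differences between array medians of −0.04 (Plin5 minus empty vector), 0.05 (Plin2 minus empty vector) and −0.09 (Plin5 minus Plin2), and the largest move of a member under any scaling was 0.17. No paired analysis was possible because each group has 1 array. With 1 pooled array per group, variation between rats and between arrays has no estimate.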

Other observations

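Outside the lists, 20 other RT1 genes had a probe set of their own, and 13 of them passed the dim filter. They were looked at after the lists had been seen. Against the empty vector their median was −0.10 on the Plin5 array, with 8 of 13 below it, beside 34.0% of all genes, and 0.34 on the Plin2 array, with 8 of 13 above it, beside 38.3%. On the Plin2 array 4 of 13 were higher by at least 1.5-fold, beside 8.84% of all genes. RT1-N2 had 7.94 (Plin5), 9.61 (Plin2) and 8.73 (empty vector), the widest gap between the Plin5 and Plin2 arrays among them at −1.67. RT1-CE11 had the opposite order, with 7.08 (Plin5), 6.19 (Plin2) and 6.71 (empty vector), like RT1-CE5 in the class I list (0.25 on the Plin5 array and −0.37 on the Plin2 array). Many of these genes belong to families of closely related copies, so single values are uncertain.

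Of the 27 promoter windows with an X box core followed by a Y box, 6 belong to RT1 genes. Besides RT1-Da, RT1-Ba and RT1-Db1 these are RT1-DOa, RT1-Ha and RT1-Db2. RT1-DOa, whose window holds GCAAC and the Y box, was at 0.00 on the Plin5 array and 0.04 on the Plin2 array. Genes outside the RT1 family with such windows and past the dim filter ran from −0.08 (Epha7) to 0.25 (Tcf3) on the Plin2 array. The class II members with GCAAC followed by the Y box were between 0.40 and 0.87 on the Plin2 array. RT1-DOa was also dimmer than these members, at 6.80 on the empty vector array. Whether its low level hides a difference was not tested.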
